A study of Mus musculus with 21 samples.

Results

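The mitochondrial ribosomal proteins were examined in the hippocampus of adult mice that had been separated from their dam as pups. The genes were chosen by symbol, as the protein-coding genes named Mrpl or Mrps with a number, without pseudogenes. Of the 55487 genes in the deposited table, 78 fitted this rule, 49 of the large subunit (Mrpl) and 29 of the small subunit (Mrps). A gene was kept if it had at least 10 counts in at least 50% of the libraries, which left 77 genes, 48 large and 29 small. The 77 kept genes had 67 to 1595 counts in every library, so the filter removed only Mrpl53, which was listed at 0 counts in all 21 libraries. The bulk RNA-seq of hippocampal poly-A RNA had 1 library per mouse, from male wild-type C57BL/6 mice aged 10 weeks. Nests of the maternal separation (MS) group (n = 9) were taken from the dam for 4 hours per day between postnatal days 10 and 17, and their home cages held less nesting material. The standard reared (SR) control group (n = 12) stayed with the dam. Rearing was assigned by whole nest, and the labels name no nest. The animal numbers form 7 runs of 3 consecutive numbers, each of 1 group, and mice are called here by run and number (A1 to C3 in MS, D1 to G3 in SR).

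Mitochondria have their own ribosome, the mitoribosome, which translates the few mRNAs that the mitochondrial genome encodes, all for subunits of the oxidative phosphorylation complexes. Its ribosomal RNAs come from the mitochondrial genome, whereas its proteins are encoded in the nucleus, made in the cytosol and imported. The small subunit binds the mRNA and decodes it, and the large subunit joins the amino acids. Some of the proteins have relatives in the bacterial ribosome, and others are found only in mitochondria. Among the kept genes, 28 of the large and 17 of the small subunit were classed as the first kind, and 20 and 12 as the second. The classes were set by the number in the symbol, with a short list of exceptions. Sequences were not compared, so single genes may be in the wrong class. Symbols do not always give the place in the ribosome, since the proteins of Mrps30 and Mrps18a sit in the large subunit, and the protein of Mrps36 is now known as a part of the 2-oxoglutarate dehydrogenase complex. By its symbol, Mrps36 was still counted here in the small subunit and in the second kind. The loss of mitoribosomal proteins in people impairs oxidative phosphorylation, with effects on heart and brain.

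The promoters of 4 genes are shown because they include the genes with the smallest p in each subunit (Mrpl14 and Mrps6), the gene with the largest difference between MS and SR (Mrpl52), and a gene whose start faces that of another mitochondrial translation gene (Mrps12). Each window runs 5′ to 3′ on the strand of the gene, from 250 bases before to 50 bases after the start of the gene in RefSeq on GRCm38.p6. Capitals mark matches on either strand to the motif of the transcription factor NRF1 (GCGCA and GCGC with any base between them) or of the ETS family (CCGGAAG), which are known from promoters of mitochondrial genes. The windows are chr17:45686099-45686398 (plus strand) for Mrpl14, chr14:54426659-54426958 (plus strand) for Mrpl52, chr16:92058086-92058385 (plus strand) for Mrps6 and chr7:28741772-28742071 (minus strand) for Mrps12.
Mrpl14: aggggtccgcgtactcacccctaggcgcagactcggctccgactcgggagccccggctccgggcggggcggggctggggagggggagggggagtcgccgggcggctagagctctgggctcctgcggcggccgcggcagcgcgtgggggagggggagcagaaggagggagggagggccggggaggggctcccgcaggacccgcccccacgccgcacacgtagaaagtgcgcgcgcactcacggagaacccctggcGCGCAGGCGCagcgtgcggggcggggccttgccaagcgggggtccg
Mrpl52: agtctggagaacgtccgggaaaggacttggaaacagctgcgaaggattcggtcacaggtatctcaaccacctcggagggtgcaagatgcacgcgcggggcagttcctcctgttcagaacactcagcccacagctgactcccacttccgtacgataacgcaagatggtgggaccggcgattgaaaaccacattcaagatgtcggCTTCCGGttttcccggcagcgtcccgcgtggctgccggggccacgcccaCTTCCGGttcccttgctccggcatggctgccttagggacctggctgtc
Mrps6: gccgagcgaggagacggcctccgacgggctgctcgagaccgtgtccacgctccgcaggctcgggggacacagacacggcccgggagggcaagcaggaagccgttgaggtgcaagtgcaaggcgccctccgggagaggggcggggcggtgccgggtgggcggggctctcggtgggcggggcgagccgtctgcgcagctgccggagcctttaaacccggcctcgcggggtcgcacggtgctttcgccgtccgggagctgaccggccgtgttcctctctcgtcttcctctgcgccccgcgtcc
Mrps12: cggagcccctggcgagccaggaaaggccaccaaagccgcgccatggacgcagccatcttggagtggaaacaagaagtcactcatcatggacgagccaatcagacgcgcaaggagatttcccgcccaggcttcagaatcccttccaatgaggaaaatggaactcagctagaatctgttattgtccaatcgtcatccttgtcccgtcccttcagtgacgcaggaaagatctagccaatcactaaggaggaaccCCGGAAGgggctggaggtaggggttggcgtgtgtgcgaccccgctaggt
Mrpl14 held 1 NRF1 match, Mrpl52 held 2 ETS matches, Mrps12 held 1 ETS match, and the letters of neither motif stood in the window of Mrps6.

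Of the 77 genes, 68 had a promoter in the RefSeq table, and they were compared with the promoters of 17492 protein-coding genes. NRF1 letters stood in 13 of the 68 (19.1%) against 7.17% of all promoters, and ETS letters in 25 (36.8%) against 12.9%. The motif of YY1 (AAGATGG followed by CGG), which can overlap the ETS motif at the letters AAG, stood in 7.35% against 1.41%. The SP1 motif (GGGCGG) was found in 34 of the 68 against 49.2% and the CCAAT box (CCAAT) in 38.2% against 42.3%. The TATA box (TATAAA) stood in 7.35% against 14.8%. Both strands were searched, and each match is a description of the letters in the window. By subunit, the NRF1 letters stood in 23.8% of 42 large subunit promoters and 11.5% of 26 small subunit promoters, and the ETS letters in 33.3% and 42.3%. Many of the genes lie head to head with another gene. The starts of 33 of the 77 (42.9%) lay within 1000 bases of the start of a protein-coding gene on the other strand, as did 2371 of all 21974 protein-coding genes (10.8%). The starts of Mrpl46 and Mrps11 faced each other, and that of Mrps12 faced Sars2, the mitochondrial seryl-tRNA synthetase, over 172 bases. The 77 genes were spread over 17 chromosomes, with 11 of them on chromosome 11.

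Libraries held 17276810 to 30449055 counts in total. MS mouse A2 lay apart in a principal component analysis (27.1 on the first component, against -12.2 to 11.9 in the others) and was left out, as the study had left out 1 outlier. In A2 the summed striatal markers reached 1970 CPM (a gene's counts scaled by library size after TMM normalization), against 81.9 to 679 in the others, and 3 of 4 dentate gyrus and 4 of 4 CA markers lay below all other mice. In A2, 70 of the 77 mitoribosomal genes lay within the range of the other mice, 7 lay below it and 0 above. The values that follow are over 8 MS and 12 SR mice. In these, the summed markers of the dentate gyrus (4 of 4 detected), the CA fields (4 of 4), astrocytes, oligodendrocytes, microglia and endothelium had overlapping ranges in MS and SR. The striatal markers (7 of 7 detected, median log2 fold change 0.48, 0 called) ran from 81.9 to 679 CPM in MS (median 120.1) and from 88.1 to 425 CPM in SR (median 107). The choroid plexus markers (9 of 9 detected, median log2 fold change 0.90, 0 called) ran from 55.1 to 4254 CPM in MS (median 3364) and from 30.9 to 4600 in SR (median 850). Of 3 neuronal markers, 2 were lower in MS at an unadjusted p under 0.05, against 4.92% of all genes (median log2 fold change of the 3, -0.11, 0 called). Their sum ran from 3117 to 3537 CPM in MS (median 3249) and from 3373 to 3792 CPM in SR (median 3565). The ranges overlapped, but the MS median lay below the lowest SR mouse. The part of these cell types in the results was not tested, other than by the choroid plexus term given with the subunits.

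Together the 77 genes took between 0.152% and 0.185% of the counts of a library. The median gene of the large subunit had 18.9 CPM and that of the small subunit 18.6 CPM. Per kilobase of exon, levels ran from 1.496 to 28.7 CPM in the large subunit (median 8.58) and from 1.56 to 20.5 CPM in the small subunit (median 7.58). Mrpl41, a protein found only in the mitochondrial large subunit, had the highest level, 28.7 CPM per kilobase, followed in that subunit by Mrpl10, which anchors the stalk that recruits translation factors, with 23.1. The lowest of the large subunit were Mrpl33 (1.496) and Mrpl13 (1.97). Their annotated exons sum to 7326 and 7936 bases, against 478 and 1223 bases in the transcripts used here. In the small subunit Mrps12, a protein of the decoding centre, had 20.5 CPM per kilobase and Mrps21 had 17.7, while Mrps35 (1.56) and Mrps30 (1.81) were lowest. The exons of Mrps35 and Mrps30 sum to 8631 and 6666 bases, against 4162 and 3319 bases in their transcripts. Levels per kilobase would differ with transcript length in place of summed exons, so these low values need not be low amounts of mRNA. The spread between mice differed by gene. The coefficient of variation of CPM over the 20 mice ran from 3.14% for Mrpl37 to 19.9% for Mrpl52.

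The first question was whether the genes of either subunit differed between MS and SR as adults. With edgeR's quasi-likelihood test and Benjamini-Hochberg adjustment over all 18146 genes tested, 0 of the 77 genes were called at an adjusted p under 0.05, where 0.011% of all genes were called. The lowest adjusted p of a mitoribosomal gene was 0.111 (Mrps6). At an unadjusted p under 0.05, 14 of the 77 (18.2%) were higher in MS, against 6.62% of all genes, and 1 was lower, against 4.92%. The log2 fold change of MS against SR was above 0 in 61 of the 77 (79.2%), against 50.3% of all genes. Over all protein-coding genes both the share higher in MS and the share above 0 were larger for shorter transcripts. The shares by transcript length are given with the length classes below. It ran from -0.08 to 0.34, with a median of 0.046, while the median of all genes was 0.00084. In bulk tissue, fewer cells of a type and less RNA per cell cannot be told apart.

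The subunits were then compared with each other. In the large subunit 41 of 48 genes had a log2 fold change above 0 (85.4%), the median was 0.044, and 6 genes were higher and 0 lower at an unadjusted p under 0.05. In the small subunit 20 of 29 were above 0 (69.0%), the median was 0.047, and 8 genes were higher and 1 lower. The genes higher at that p were 12.5% of the large and 27.6% of the small subunit. Over all genes, 50.3% were above 0, 6.62% were higher and 4.92% were lower. Of protein-coding genes on transcripts under 1000 bases, 78.7% were above 0 and 24.9% were higher. The difference in share between the subunits was not tested. With Mrps30 and Mrps18a placed in the large subunit, where their proteins sit, the medians were 0.048 for 50 genes and 0.043 for 27. Mrps36 stayed among the 27. Without Mrps6 the median of the small subunit was 0.045. Of the genes classed as having a bacterial relative, 24 of 28 large subunit genes and 10 of 17 small subunit genes lay above 0 (medians 0.051 and 0.033). Of those classed as found only in mitochondria, 17 of 20 and 10 of 12 did (medians 0.038 and 0.071), where 50.3% of all genes did. These classes rest on the symbols and are approximate. With the choroid plexus score of each mouse as a term in the model, the median was 0.046 in the large and 0.060 in the small subunit. With that term, 12 mitoribosomal genes were higher in MS at an unadjusted p under 0.05 and 1 was lower, while 5.05% of all genes were higher. The lowest edgeR adjusted p of a mitoribosomal gene was then 0.278, against 0.111 without the term.

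**Figure D1:**
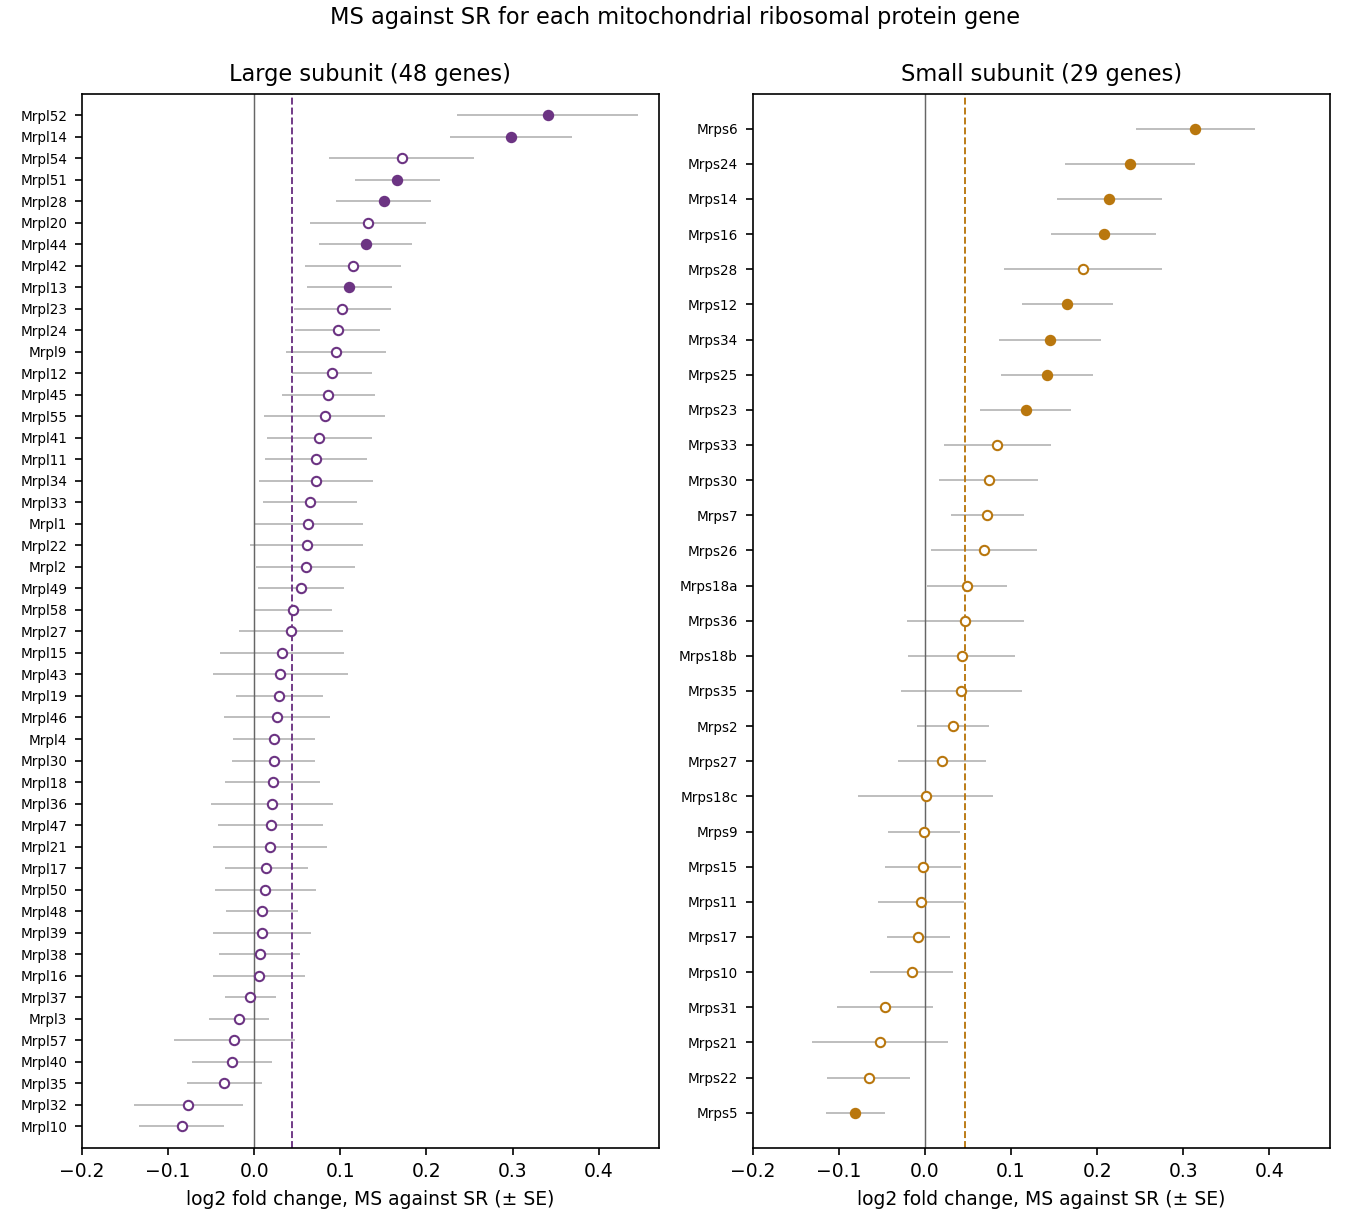
Log2 fold change of MS (n = 8) against SR (n = 12) for each kept gene of the large (48 genes, left) and small (29 genes, right) subunit. Points are edgeR estimates with their standard errors, filled points have an unadjusted p under 0.05, and dashed lines are the medians of the subunits (0.044 and 0.047). Most points of both subunits lie just above 0, and none was called at an adjusted p under 0.05.

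A level per mouse was computed as the mean log2 CPM of a subunit's genes relative to the mean of the 20 mice. For the large subunit it ran from -0.08 to 0.22 in MS (median 0.01) and from -0.11 to 0.02 in SR (median -0.02), with means of 0.033 ± 0.0854 (SD, n = 8) and -0.022 ± 0.0377 (SD, n = 12). For the small subunit it ran from -0.06 to 0.19 in MS (median 0.02) and from -0.09 to 0.01 in SR (median -0.01). The ranges of MS and SR overlapped in both subunits. The level of the large minus that of the small subunit lay between -0.02 and 0.03 in MS and between -0.05 and 0.04 in SR. B1, D2, G2 and G3 had levels of opposite sign in the subunits, and those of G2 were both close to 0 (0.0018 and -0.0008).

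The highest and the lowest MS mice came from the same run of animal numbers. C1 had 0.22 for the large and 0.19 for the small subunit, was the highest of the 20 mice in 41 of the 77 genes, and lay above the median of the gene in 75 of them. C3 had -0.08 and -0.06 and was the lowest mouse in 15 genes. Among SR mice, E2 was lowest for the large subunit (-0.11) and D1 for the small subunit (-0.09). By run, the mean level of the large subunit was 0.03 in A, 0.02 in B and 0.05 in C, and -0.03 in D, -0.05 in E, 0.01 in F and -0.02 in G. Without C1 the median log2 fold change fell to 0.0092 in the large and 0.026 in the small subunit. Without C3 it was 0.063 and 0.062.

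**Figure D2:**
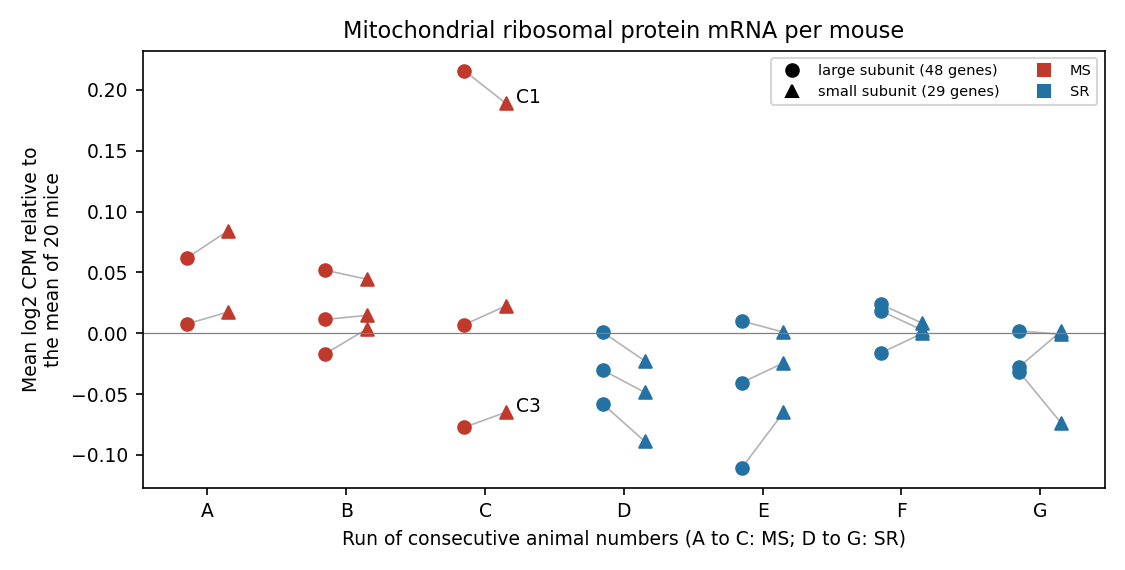
Level of the large (circles) and small (triangles) subunit in each of 8 MS (red) and 12 SR (blue) mice, by run of consecutive animal numbers. The vertical axis is the mean log2 CPM of the subunit's genes relative to the mean of 20 mice, and lines join the subunits of a mouse. MS mice C1 and C3 lie at 0.22 and -0.08 for the large and at 0.19 and -0.06 for the small subunit, and most other mice lie close to 0.

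Within groups, the genes varied together to a small degree. After the group means were removed, the mean correlation of log2 CPM between pairs was 0.219 within the large subunit, 0.152 within the small subunit and 0.192 between the subunits over 20 mice. Between pairs of all genes tested it was 0.000527, and among 78 cytosolic ribosomal protein genes 0.584. Mitoribosomal genes correlated with cytosolic ribosomal protein genes at a mean of 0.301. The genes that followed the other members most closely were Mrps26 (r = 0.894), Mrpl41 (0.790) and Mrpl15 (0.767). C1 was the highest of the 20 mice for each of these genes (54.8, 34.6 and 25.7 CPM). Correlations without C1 were not computed. These are descriptions over the same 20 libraries, with shared depth and RNA quality.

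In the large subunit the smallest p belonged to Mrpl14 (ENSMUSG00000023939, chromosome 17, 45686322 to 45698495 of GRCm38). Its protein has a bacterial relative and lies at the face that meets the small subunit. In MS the lowest, median and highest mice had 7.07, 8.10 and 9.83 CPM, and in SR 6.05, 6.61 and 8.45 CPM. All 8 MS mice lay above the SR median, and 3 above the highest SR mouse. The means were 8.39 ± 0.927 CPM (SD, n = 8) and 6.83 ± 0.635 CPM (SD, n = 12), a 1.23-fold difference with a log2 fold change of 0.30 (SE 0.0708, edgeR adjusted p = 0.118). It was called by DESeq2's Wald test (adjusted p = 0.0231), as was Mrps6, where DESeq2 called 0.966% of the 13871 genes with an adjusted p. Mrpl14 and Mrps6 are also among the changed genes that the study named from these same mice, so that these calls are not independent of that list. On the opposite strand Tmem63b covers 11.2% of the exon bases of Mrpl14.

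Mrpl52, a small protein found only in mitochondria, differed most (ENSMUSG00000010406, chromosome 14, 54426909 to 54429756). MS mice had 4.38, 7.62 and 8.93 CPM (lowest, median, highest) and SR mice 4.58, 5.92 and 7.07 CPM. The groups were nearly apart, since 7 of 8 MS mice lay above every SR mouse, while C3 lay below all of them. Over all genes, every MS mouse lay above every SR mouse in 0.00551%, and 0 of the 77 mitoribosomal genes did so. The log2 fold change was 0.34 (SE 0.105, edgeR adjusted p = 0.210). Without C3 it was 0.42 (edgeR adjusted p = 0.0243).

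Mrpl51, also found only in mitochondria, had 23.0, 26.3 and 29.6 CPM in MS and 21.1, 23.4 and 26.5 CPM in SR, with a log2 fold change of 0.17 (SE 0.0497, edgeR adjusted p = 0.194). Mrpl28, with a bacterial relative, had 24.8, 27.4 and 35.4 CPM in MS and 22.9, 25.0 and 26.8 CPM in SR, with a log2 fold change of 0.15 (SE 0.0549, edgeR adjusted p = 0.289). The highest value of Mrpl28 was that of C1. In both genes 7 of 8 MS mice lay above the SR median, and the ranges overlapped. Mrpl44, related to RNase III enzymes and needed for assembly of the large subunit, had a log2 fold change of 0.13 (SE 0.0538, edgeR adjusted p = 0.354), and Mrpl13 one of 0.11 (SE 0.0490, edgeR adjusted p = 0.382).

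The most negative values of the large subunit were small. Mrpl10 had 31.4, 38.3 and 42.9 CPM in MS and 36.7, 40.1 and 44.7 CPM in SR (log2 fold change -0.08, SE 0.0491, edgeR adjusted p = 0.530). Mrpl32, which is processed by an inner membrane protease before it joins the ribosome, had a log2 fold change of -0.08 (SE 0.0636, edgeR adjusted p = 0.686). Its groups overlapped, with 8.98 to 12.8 CPM in MS and 10.0 to 12.4 CPM in SR. The genes of highest and lowest level per kilobase of exon did not stand apart, with log2 fold changes of 0.08 (SE 0.0611) for Mrpl41 and 0.06 (SE 0.0544) for Mrpl33.

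**Figure D3:**
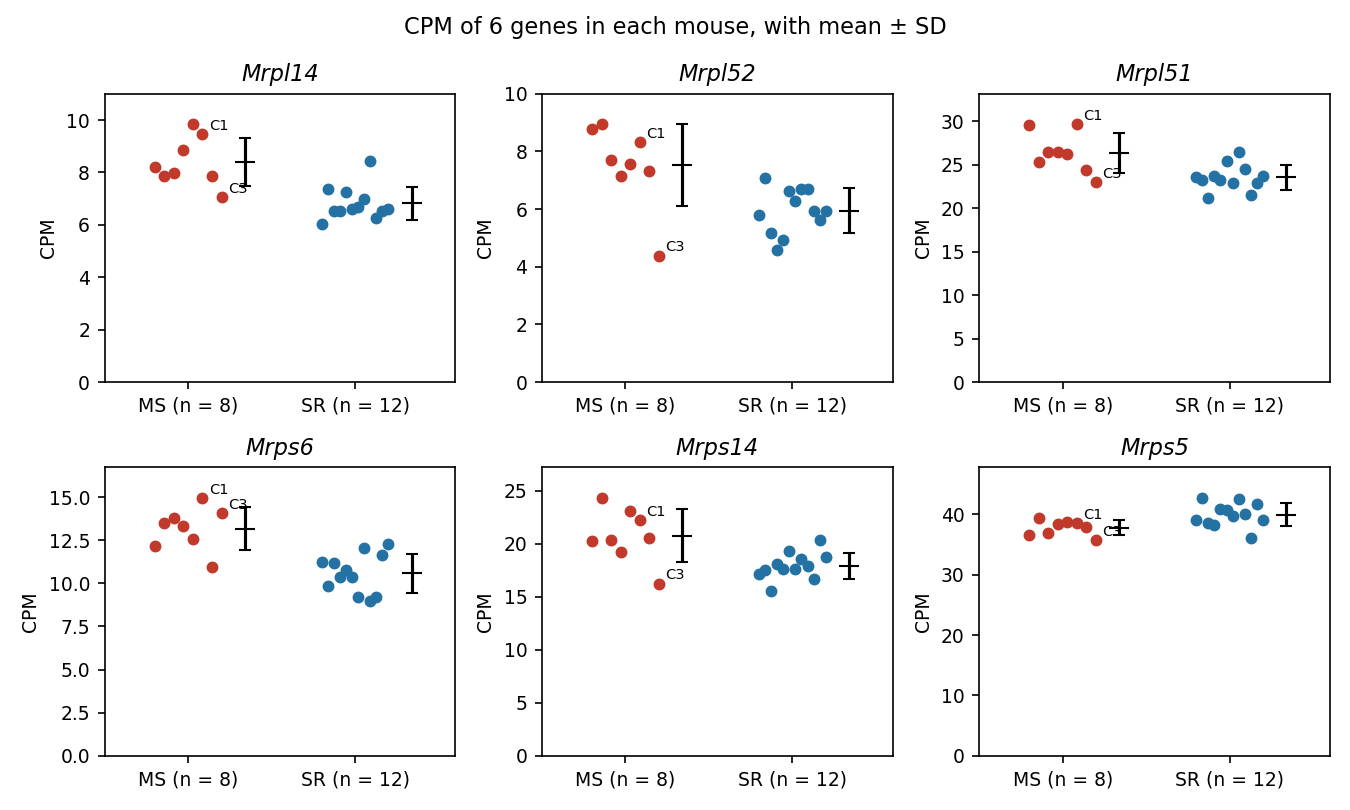
CPM of 6 mitoribosomal genes in each MS (red, n = 8) and SR (blue, n = 12) mouse, with the mean ± SD in black beside the points. In Mrpl52, 7 MS mice lie above every SR mouse and C3 lies below them at 4.38 CPM, and in Mrps5 0 of 8 MS mice lie above the SR median.

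In the small subunit the smallest p belonged to Mrps6 (ENSMUSG00000039680, chromosome 16, 92058270 to 92112227), whose bacterial relative sits at the edge of the platform of the subunit. MS mice had 11.0, 13.4 and 15.0 CPM (lowest, median, highest) and SR mice 8.96, 10.6 and 12.3 CPM. All 8 MS mice lay above the SR median and 6 above the highest SR mouse. The means were 13.2 ± 1.25 CPM (SD, n = 8) and 10.6 ± 1.13 CPM (SD, n = 12), a 1.24-fold difference with a log2 fold change of 0.31 (SE 0.0689, edgeR adjusted p = 0.111, DESeq2 adjusted p = 0.0132).

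Mrps6 shares its locus with Slc5a3, the sodium-dependent transporter of myo-inositol. Slc5a3 lies within the span of Mrps6 on the same strand over 29152 bases, but their exons share only 159 bases, 10.4% of the exon bases of Mrps6. A read-through gene, Gm49711, had 0 to 5 counts per library and shares 19.9% of the exon bases of Mrps6, which is also the share covered by all genes on that strand together, those of Slc5a3 included. Slc5a3 had 27.1, 39.9 and 47.7 CPM in MS and 23.7, 28.3 and 37.1 CPM in SR, with a log2 fold change of 0.38 (SE 0.101, edgeR adjusted p = 0.159, DESeq2 adjusted p = 0.0280). It was also called by edgeR with a term for the length trend of the library, which is how its log2 CPM correlated with transcript length (adjusted p = 0.0200), within the lower range of animal numbers (adjusted p = 0.0061), without C2 (adjusted p = 0.0444) and without run C (adjusted p = 0.0081). Slc5a3, too, is among the changed genes that the study named from these mice. Both genes had log2 fold changes above 0, but they ranked the MS mice of run C in different ways. C1 was the highest MS mouse for Mrps6 (15.0 CPM) and the lowest for Slc5a3 (27.1 CPM), and C2 was the lowest for Mrps6 (11.0 CPM). The part that reads of Slc5a3 have in the counts of Mrps6 was not tested.

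Within the lower range of animal numbers (runs A, B, D, E and F) the log2 fold change was 0.32 for Mrps6 and 0.53 for Slc5a3, and within the higher range (C and G) it was 0.27 and 0.06. The difference between the ranges, tested as an interaction, was -0.05 for Mrps6 (SE 0.153, edgeR adjusted p = 0.946) and -0.48 for Slc5a3 (SE 0.202, edgeR adjusted p = 0.531).

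**Figure D4:**
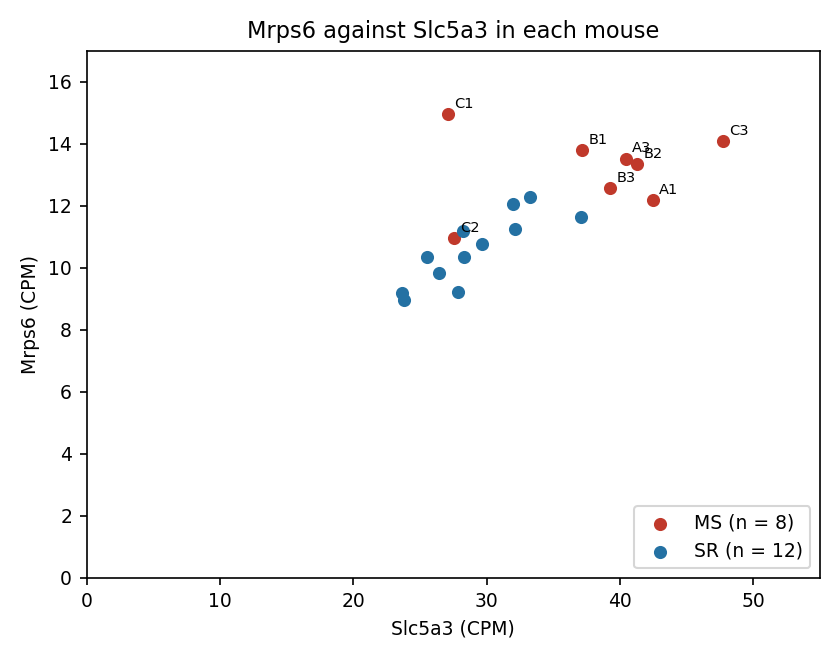
CPM of Mrps6 (vertical) against CPM of Slc5a3 (horizontal), the genes that share a locus, in each MS (red, n = 8, named) and SR (blue, n = 12) mouse. MS mouse C1 has 15.0 CPM of Mrps6 but only 27.1 CPM of Slc5a3, and C2 lies among the SR mice.

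Mrps14, with a bacterial relative in the head of the subunit, had 16.2, 20.4 and 24.3 CPM in MS and 15.5, 17.7 and 20.3 CPM in SR, and 5 MS mice lay above the highest SR mouse. Its log2 fold change was 0.21 (SE 0.0612, edgeR adjusted p = 0.181). Mrps16, whose loss in people causes a deficiency of oxidative phosphorylation, had 8.88, 10.2 and 11.9 CPM in MS and 7.66, 9.03 and 9.92 CPM in SR (log2 fold change 0.21, SE 0.0609, edgeR adjusted p = 0.189). Mrps24 had 12.4, 16.9 and 19.6 CPM in MS and 11.6, 14.4 and 16.9 CPM in SR (log2 fold change 0.24, SE 0.0756, edgeR adjusted p = 0.226). In each of these 3 genes 7 of 8 MS mice lay above the SR median, and C3 was the lowest MS mouse.

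Mrps12 had 19.7, 22.5 and 26.1 CPM in MS and 18.6, 20.2 and 22.6 CPM in SR (log2 fold change 0.17, SE 0.0527, edgeR adjusted p = 0.226), while the gene that faces it, Sars2, had a log2 fold change of -0.12 (SE 0.0493, edgeR adjusted p = 0.362). Mrps25, found only in mitochondria, had a log2 fold change of 0.14 (SE 0.0536, edgeR adjusted p = 0.308), and 69.8% of its exon bases lie opposite Nr2c2, which had -0.08. The strand setting of the counting is not given in the sources used here, so that reads of such pairs may not be told apart. Mrps24 shares 15.4% of its exon bases with Urgcp on the same strand, and Urgcp had a log2 fold change of 0.01.

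The only gene that was lower in MS at an unadjusted p under 0.05 was Mrps5, a protein known for its part in the accuracy of decoding. It had 35.8, 38.2 and 39.4 CPM in MS and 36.1, 39.9 and 42.7 CPM in SR, and 0 of 8 MS mice lay above the SR median. Its log2 fold change was -0.08 (SE 0.0342, edgeR adjusted p = 0.365). Mrps22, found only in mitochondria, had -0.07 (SE 0.0481, edgeR adjusted p = 0.637). Of the genes of high or low level per kilobase of exon, Mrps21 had a log2 fold change of -0.05 (SE 0.0789). Mrps35 had 0.04 (SE 0.0700) and Mrps30 had 0.07 (SE 0.0576). The paralogs Mrps18a, Mrps18b and Mrps18c, whose proteins take different places in the ribosome, had 29.6 ± 2.62, 8.98 ± 0.766 and 8.49 ± 1.09 CPM (SD, n = 8) in MS. In SR they had 28.6 ± 1.47, 8.71 ± 0.682 and 8.49 ± 0.924 CPM (SD, n = 12), so that each differed by less than the spread between mice.

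The 5 mitoribosomal proteins without an Mrp symbol all had log2 fold changes above 0, as did 50.3% of all genes, and their median was 0.14. Chchd1 had 8.00, 11.4 and 13.9 CPM in MS and 8.87, 9.92 and 11.0 CPM in SR (log2 fold change 0.19, SE 0.0824, edgeR adjusted p = 0.366). Aurkaip1 had 0.16 (SE 0.0562, edgeR adjusted p = 0.289) and Gadd45gip1, of the large subunit, 0.14 (SE 0.0679, edgeR adjusted p = 0.436). Dap3, a GTP-binding protein of the small subunit, and Ptcd3, a pentatricopeptide repeat protein at the mRNA entry, had 0.04 (SE 0.0345) and 0.02 (SE 0.0353).

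Of 50 genes that serve the mitoribosome, as translation factors, aminoacyl-tRNA synthetases or assembly and rRNA modification factors, 49 were tested and 0 were called, where 0.011% of all genes were. At an unadjusted p under 0.05, 4 were higher in MS (8.16%, against 6.62% of all genes) and 2 were lower (against 4.92%). The median log2 fold change was 0.018, and 32 (65.3%) lay above 0, against 50.3% of all genes. The 22 assembly and rRNA modification genes had a median of 0.048, with 19 above 0, the 17 synthetases had -0.0079, with 8 above 0, and the 10 translation factors -0.022, with 5 above 0. Fastkd2, which binds the large mitochondrial rRNA, had 16.7, 17.5 and 19.2 CPM in MS and 12.7, 15.9 and 17.4 CPM in SR (log2 fold change 0.19, SE 0.0552, edgeR adjusted p = 0.189). Tsfm, the mitochondrial elongation factor Ts, also had 0.19 (SE 0.0642, edgeR adjusted p = 0.247). The initiation factor gene Mtif2 had -0.08 (SE 0.0353, edgeR adjusted p = 0.371).

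The cytosolic ribosomal proteins were set beside the mitochondrial ones. All 78 tested had log2 fold changes above 0, as did 50.3% of all genes, and their median was 0.15. At an unadjusted p under 0.05, 47 (60.3%) were higher in MS, against 6.62% of all genes. At an adjusted p under 0.05, 0 of the 78 were called, where 0.011% of all genes were. Transcript length moved with these values. Mitoribosomal transcripts had a median length of 1316 bases (463 to 7300). The 24 genes with transcripts under 1000 bases had a median log2 fold change of 0.079, the 28 genes of 1000 to under 2000 bases 0.025, and the 25 longer ones 0.032. The same medians over all protein-coding genes were 0.11 (732 genes), 0.043 (2851 genes) and -0.0064 (11265 genes). In the shorter classes the mitoribosomal median lay below that of all protein-coding genes, and in the longest class above it. From short to long, 25.0%, 14.3% and 16.0% of the mitoribosomal genes were higher in MS at an unadjusted p under 0.05. Of all protein-coding genes 24.9%, 12.7% and 4.96% were. Log2 fold changes lay above 0 in 91.7%, 71.4% and 76.0% of the mitoribosomal genes, and in 78.7%, 66.8% and 46.7% of all protein-coding genes.

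Over the 77 genes, log2 fold change and log2 transcript length had r = -0.29 (rho = -0.30), and over 14848 protein-coding genes r = -0.19. Genes are not independent replicates. Over the 20 mice, the level of the mitoribosomal genes and the length trend of the library had r = -0.77 (rho = -0.67), and r = -0.54 without the 2 mice farthest from the median trend. Both measures come from the same libraries. C1 had the lowest trend, 0.390, where the other mice had 0.407 to 0.437. With the trend as a term in the model the medians were 0.022 for the large and 0.030 for the small subunit, against 0.00007 for all genes.

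**Figure D5:**
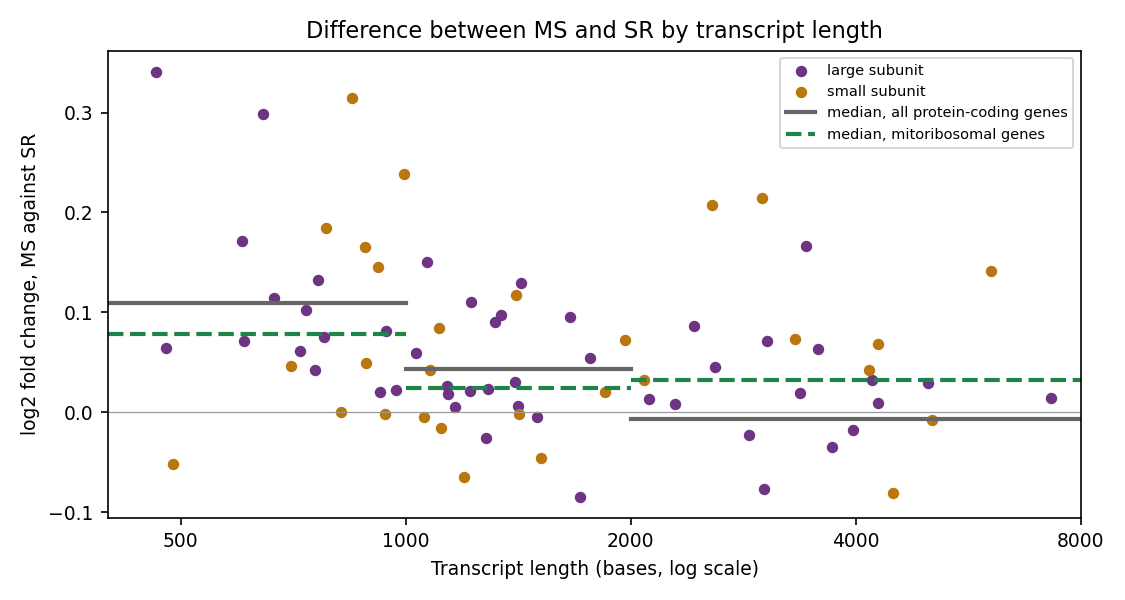
Log2 fold change of MS against SR for each mitoribosomal gene (points) by transcript length in bases (log axis). Lines are medians in 3 length classes, over the mitoribosomal genes (dashed green) and over all protein-coding genes (solid grey). Both sets are highest under 1000 bases, with medians of 0.079 and 0.11.

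The animal numbers fall into a lower and a higher range, which the labels do not explain. The median log2 fold change was 0.038 (large) and 0.027 (small) within the lower range, and 0.086 and 0.083 within the higher range, where C1 is 1 of 3 MS mice. The difference between ranges was called in 0 of the 77 genes and in 0% of all genes (edgeR adjusted p), with 4 of the 77 and 8.67% of all genes at an unadjusted p under 0.05. These 4 were Mrpl32 (0.36, SE 0.118, edgeR adjusted p = 0.451), Mrpl49 (0.23), Mrpl45 (0.24) and Mrps22 (0.20). Within the lower range alone, Mrps6 (edgeR adjusted p = 0.0399) and Mrps14 (edgeR adjusted p = 0.0399) were called, where 1.25% of genes were called.

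Calls also depended on the MS mice of run C. Without C2, Mrps6 was called (edgeR adjusted p = 0.0420), among 0.597% of genes. Without C3, Mrpl14 (edgeR adjusted p = 0.0318), Mrpl52 and Mrps14 (edgeR adjusted p = 0.0286) were called, among 0.596% of genes. Without the whole run, these 4 genes were called, among 1.83% of genes. With counts summed within each run, 0 genes of all were called, and 1753 had an unadjusted p under 0.05.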

How the data were processed

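Hippocampal poly-A RNA of 21 mice was sequenced in paired-end libraries. The authors aligned reads to GRCm38 with STAR 2.7.3a and counted them with FeatureCounts, and deposited raw counts per gene without normalization. The strand setting of the counting is not given in the sources used here. Symbols and positions were taken from GENCODE M21, which has no entry for 260 genes. Groups came from the labels.

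The 20 libraries without A2 were normalized by TMM, filtered (filterByExpr, minimum count 10) and tested with edgeR 4.0.16 (quasi-likelihood, robust) in R 4.3.3, with a threshold of 0.05 on the Benjamini-Hochberg adjusted p. SE was taken from the F statistic, as the size of the log2 fold change over its square root. Log2 CPM used a prior count of 2. DESeq2 1.42.0, limma 3.58.1, other filters, terms for number range, length trend and choroid plexus score, and leaving out libraries or runs were alternatives. Figures used matplotlib 3.10.9. The edgeR steps were tested on simulated data.

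The genes, lists and tests were chosen with earlier results of these data known. Named genes were, per subunit, the 6 of smallest p, the 2 of most negative log2 fold change and the 2 highest and 2 lowest per kilobase of exon. Further named were Slc5a3, the genes whose symbol does not give their place, mitoribosomal genes of other symbols, and the 2 highest and 2 lowest translation and assembly genes by p. Mrps26, Mrpl15, Mrpl37, Mrpl49 and Mrpl45 were named after their values were seen. Mice of a run may share a nest, so p-values over mice may be too small.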

Additional observations from a re-analysis of the deposited data

Results flagged for a closer look

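CPM were examined in 38 sets, each of 1 gene in 1 group of mice, for a mouse far from its group. Chance alone flags about 1 in 20 sets, but these sets share the same mice and are not independent. In MS (n = 8), 5 values lay far from the nearest of the other mice relative to the range of the group. C3 had 4.38 CPM of Mrpl52, where the nearest MS mouse had 7.13, and 7.89 CPM of Mrps21, where the nearest had 12.4. C1 had 35.4 CPM of Mrpl28 (nearest 28.04), 34.6 CPM of Mrpl41 (nearest 26.1) and 73.6 CPM of Dap3 (nearest 66.6).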

How the results depend on the processing

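Over all genes, edgeR called 2 genes. The count was 1 with all 21 libraries and 1 without a filter on low counts, 134 with DESeq2 and 230 within the lower number range. It was 0 with the choroid plexus score as a term (1505 genes at an unadjusted p under 0.05), with counts summed within runs (1753), with limma-voom and run as a random block (1809) and within the higher number range (810). With a library or run left out it ran from 0 to 340. Mitoribosomal genes called numbered 0 in the main comparison, 2 with DESeq2, 2 within the lower number range and 0 to 4 with a library or run left out. The 14 genes higher at an unadjusted p became 1 within the higher number range, which holds 3 MS and 3 SR mice. Genes that differed between number ranges numbered 0 (1573 at an unadjusted p), and 0 to 2 with a library left out. Of 1326 pairs of 34 named genes and an alternative, 1309 kept their direction or stayed uncalled, 17 passed the threshold only in the alternative and 0 reversed; 31 changed sign while not called. No paired analysis was possible because the labels give single animal numbers that no MS and SR mice share. At 67 to 1595 counts per library, counting error adds to the spread between mice for the least abundant genes.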

Other observations

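Mrpl53 (chromosome 6, 83109040 to 83109939) was listed at 0 counts in all 21 libraries. Of its 790 exon bases, 88.0% are shared on the same strand with Gm42688, which had 37 to 91 counts per library and a log2 fold change of 0.08. Nme3 was also listed at 0 in every library, and 87.1% of its 876 exon bases are shared with Mrps34. A count of 0 for a gene whose exons are shared does not give its level. Of 5 processed pseudogenes of the family, 3 are named for Mrps36, and their counts ran from 0 to 40 per library, with 26 to 55 for Mrpl23-ps1 and 0 to 6 for Mrpl48-ps.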
